A study of Mus musculus with 4 samples.

Results

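NF-kB subunits and the inhibitors that act on them were measured in LSK cells, a bone marrow fraction that lacks lineage markers, carries Sca1 and c-Kit, and holds blood stem cells and multipotent progenitors. The 10 genes chosen for description were the subunits Rel, Rela, Relb, Nfkb1 and Nfkb2 and the inhibitors Nfkbia, Nfkbie, Nfkbiz, Bcl3 and Tnfaip3. They were matched by gene symbol, and the set was chosen with earlier results of these data known, so the counts below describe it and are no independent evidence. Of these, 9 had a probe set assigned to a single gene, 1 probe set each, out of 22180 genes measured in this way. Nfkb1 was named by no probe set in the annotation used here and was not analysed here.

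The tested samples came from SRC-3 knockout (KO) mice and the others from wild-type (WT) mice, with 2 samples in each group and 1 Affymetrix array per sample. All mice were males aged 8 weeks, and cells were flushed from femur and tibia, freed of red cells by lysis, stained and sorted by flow cytometry. The sources used here do not give the strain, the kind of SRC-3 allele or the number of mice behind each sample. Samples of a group are labelled as biological replicates, but nothing says that they came from separate mice, so p-values reflect only how these samples vary, and that variation may be technical.

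NF-kB is a family of dimeric transcription factors built from 5 related subunits. In resting cells inhibitor proteins of the IkB family hold the dimers in the cytoplasm. Signals from receptors of tumour necrosis factor, interleukin 1 and microbial products activate the IkB kinase, the inhibitor is degraded, and the dimers enter the nucleus. Several inhibitors are themselves NF-kB target genes and so close a feedback loop. In blood progenitors NF-kB is known for roles in survival, inflammation and lymphoid development. SRC-3, encoded by Ncoa3, is a transcriptional coactivator known to assist nuclear receptors and, in other cell types, NF-kB.

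The promoters of 4 of the genes are shown because NF-kB is known to act on several genes of its own family. The kappa B consensus, a 10-base motif, was searched on both strands in windows from 250 bases before to 50 after a transcript start (RefSeq, GRCm38.p6), printed 5′ to 3′ on the gene's strand. Capitals mark the matches. Rel is shown as the subunit with the largest difference of the 9, Rela as its partner subunit, and Nfkbia and Tnfaip3 as feedback inhibitors. The windows are chr11:23770920-23771219 (minus strand) for Rel, chr19:5637291-5637590 (plus strand) for Rela, chr12:55492598-55492897 (minus strand) for Nfkbia and chr10:19015361-19015660 (minus strand) for Tnfaip3.
Rel: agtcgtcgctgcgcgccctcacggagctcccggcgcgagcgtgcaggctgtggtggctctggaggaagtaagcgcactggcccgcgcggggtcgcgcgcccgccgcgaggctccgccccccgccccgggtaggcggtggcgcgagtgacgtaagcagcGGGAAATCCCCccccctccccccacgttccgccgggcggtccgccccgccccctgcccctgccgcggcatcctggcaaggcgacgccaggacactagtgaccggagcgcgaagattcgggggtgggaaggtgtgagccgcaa
Rela: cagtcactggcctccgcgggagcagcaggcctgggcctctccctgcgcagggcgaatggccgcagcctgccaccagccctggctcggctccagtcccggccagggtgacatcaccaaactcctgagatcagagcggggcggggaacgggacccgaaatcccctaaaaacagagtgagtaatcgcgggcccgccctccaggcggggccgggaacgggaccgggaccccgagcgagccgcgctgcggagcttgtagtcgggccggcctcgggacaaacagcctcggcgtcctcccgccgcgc
Nfkbia: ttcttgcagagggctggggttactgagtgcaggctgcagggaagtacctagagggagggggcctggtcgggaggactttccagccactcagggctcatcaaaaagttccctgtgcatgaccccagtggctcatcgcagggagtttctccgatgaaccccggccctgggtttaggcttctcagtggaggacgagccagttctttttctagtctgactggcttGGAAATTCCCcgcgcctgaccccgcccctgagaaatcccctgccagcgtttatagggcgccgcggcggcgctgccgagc
Tnfaip3: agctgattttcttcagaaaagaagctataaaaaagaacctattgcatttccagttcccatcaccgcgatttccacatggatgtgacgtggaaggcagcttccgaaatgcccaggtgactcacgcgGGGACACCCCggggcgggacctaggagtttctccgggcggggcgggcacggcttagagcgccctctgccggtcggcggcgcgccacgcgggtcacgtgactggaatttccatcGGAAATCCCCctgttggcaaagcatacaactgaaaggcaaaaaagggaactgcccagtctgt

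RefSeq windows were found for 7 of the 9 measured genes, 10 windows in all, and 8 of the 10 held the consensus. Of all 32851 windows of 300 bases in the same table, 8.46% held it. In Rel a pair of overlapping matches began 92 and 91 bases before the start, and in Nfkbia 1 match began 29 bases before it. Tnfaip3 had matches 125 and 12 bases before the start, Nfkbie 1 match 106 bases before it, and Bcl3 1 match that began 2 bases after it. All 3 windows of Nfkb2 held a match, but 2 of them overlap and share 1 match. The Rela window and a further Tnfaip3 window held none, which says only that these letters are not in those windows.

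Among the 9 genes, Rel fell in KO and no other gene passed the test. Rel, the gene of the c-Rel subunit that is prominent in lymphoid and other blood cells, was at 8.69 and 8.64 in the KO samples, against 10.01 and 9.93 in the WT samples (log2 expression). Both KO samples lay more than 1.2 below both WT samples, and within each group the arrays were nearly level. The means were 8.67 ± 0.04 in KO and 9.97 ± 0.05 in WT (SD, n = 2), a 2.47-fold fall with a log2 difference of -1.31 ± 0.14 (SE, limma adjusted p = 0.027). In bulk RNA, fewer cells of a type that expresses a gene and less of its RNA per cell cannot be told apart.

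By count, 1 of the 9 genes was lower and 0 were higher at an adjusted p under 0.05, against 0.113% lower and 0.397% higher of all 22180 genes. At an unadjusted p under 0.05, Rel, Rela and Nfkbiz were lower and 0 of the 9 genes were higher, against 6.93% lower and 10.5% higher of all genes. In 5 of the 9 genes both KO arrays lay below both WT arrays, which held for 22.9% of all genes. In Nfkbia both KO arrays lay above both WT arrays, as in 25.1% of all genes. Group means were lower in KO for 8 of the 9 genes, against 50.2% of all genes, and the median log2 difference was -0.47, against -0.001 over all genes. With 2 samples a group, an exact permutation test over samples cannot give a two-sided p below 0.33, so each test rests on the spread borrowed across genes by limma.

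**Figure D1:**
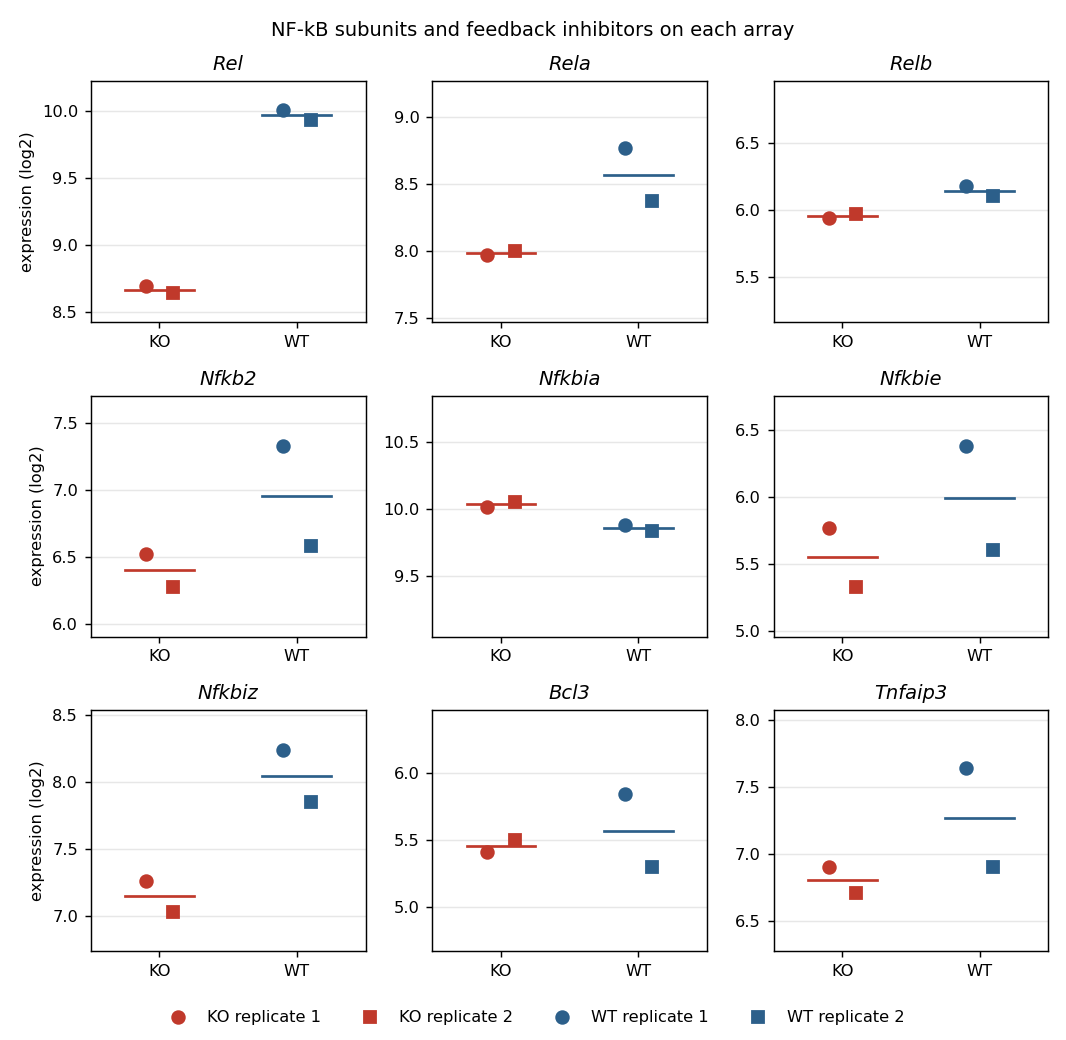
Expression of the 9 genes (log2, vertical axis) in KO samples (red, left) and WT samples (blue, right), with replicate 1 as circles, replicate 2 as squares and group means as lines. Each panel spans the same log2 range. Rel has KO values of 8.69 and 8.64 far below WT values of 10.01 and 9.93, while the KO and WT values of Nfkbie, Bcl3 and Tnfaip3 overlap or touch.

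The other subunits lay lower in KO without passing the test. Rela, which encodes p65, the transactivating partner in the most common NF-kB dimer, was at 7.97 and 8.00 in KO and at 8.77 and 8.37 in WT. The groups were apart, and WT replicate 1 stood above WT replicate 2. Its log2 difference was -0.59 ± 0.19 (SE, limma adjusted p = 0.19, unadjusted p = 0.019), with a 95% interval of -1.04 to -0.14.

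Nfkb2 encodes p100, the precursor that is processed to p52 in the alternative pathway. It was at 6.52 and 6.28 in KO, against 7.33 and 6.58 in WT. The highest KO value lay 0.06 below the lowest WT value, and WT replicate 1 was far from the other 3 arrays. The difference was -0.55 ± 0.27 (SE, limma adjusted p = 0.36, 95% interval -1.22 to 0.11).

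Relb, the partner of p52 in the alternative pathway, was at 5.94 and 5.97 in KO and at 6.18 and 6.11 in WT. The groups were apart by 0.13 in a narrow range. The difference of -0.19 ± 0.17 (SE, limma adjusted p = 0.64) had a 95% interval of -0.60 to 0.22, so a fall the size of that of Rel lies outside it.

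Within each array Rel was also set against the other subunits, as a description. The log2 value of Rel minus that of Rela was 0.72 and 0.64 in KO, against 1.24 and 1.56 in WT. Against Relb it was 2.75 and 2.67 in KO and 3.83 and 3.83 in WT. Against Nfkb2 it was 2.17 and 2.36 in KO and 2.68 and 3.35 in WT. The differences of -0.72, -1.12 and -0.75 are the fall of Rel less the difference of each partner, so they restate the values above and are no separate evidence. The exact permutation p was 0.33 for each (two-sided, 0.33 after adjustment over the 3 partners), the smallest that 2 samples against 2 allow. These values compare changes and say nothing of which subunit is more abundant.

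None of the 5 genes grouped here as inhibitors passed the test in limma after adjustment, and Nfkbiz alone had an unadjusted p under 0.05. Nfkbiz and Bcl3 are in this group as nuclear members of the IkB family, and whether they inhibit in these cells was not tested. Nfkbia encodes IkB alpha, the classical inhibitor that NF-kB induces rapidly, and it was the single gene of the 9 with a higher mean in KO. It was at 10.02 and 10.05 in KO and at 9.88 and 9.84 in WT. The groups were apart by 0.14 and the replicates were close. The difference was 0.18 ± 0.13 (SE, limma adjusted p = 0.54), with a 95% interval of -0.13 to 0.49.

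Nfkbie encodes IkB epsilon, a second classical inhibitor. It was at 5.77 and 5.33 in KO and at 6.39 and 5.61 in WT, and the groups overlapped. The difference was -0.44 ± 0.30 (SE, limma adjusted p = 0.51, 95% interval -1.17 to 0.28).

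Nfkbiz encodes IkB zeta, an inducible nuclear member of the family that acts on a subset of target genes. It was at 7.26 and 7.03 in KO, against 8.24 and 7.85 in WT. Both KO arrays lay at least 0.59 below both WT arrays, the widest gap of the 9 genes after Rel. The difference was -0.90 ± 0.20 (SE, limma adjusted p = 0.11, unadjusted p = 0.0037), with a 95% interval of -1.39 to -0.41.

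Bcl3, another nuclear member of the family that binds p50 and p52 dimers, was at 5.41 and 5.50 in KO and at 5.84 and 5.29 in WT. The KO values lay between the WT values, and the difference was -0.12 ± 0.23 (SE, limma adjusted p = 0.85, 95% interval -0.67 to 0.43). Without WT replicate 1 the difference was 0.16. Tnfaip3 encodes A20, an enzyme that edits ubiquitin chains and shuts off the signal upstream of the IkB kinase. It was at 6.90 and 6.71 in KO and at 7.64 and 6.90 in WT, so that KO replicate 1 and WT replicate 2 were equal. The difference was -0.47 ± 0.27 (SE, limma adjusted p = 0.44, 95% interval -1.11 to 0.18).

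The WT arrays differed from each other in the same direction over the 9 measured genes. WT replicate 1 was above WT replicate 2 in 9 of the 9 genes, against 46.6% of all 22180 genes. Rel, Relb and Nfkbia differed by 0.07, 0.08 and 0.04 between the WT arrays, while Nfkb2, Nfkbie, Tnfaip3 and Bcl3 differed by 0.75, 0.78, 0.74 and 0.55. KO replicate 1 was above KO replicate 2 in 5 of the 9.

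With any 1 array left out, the Rel difference ran from -1.34 to -1.27, that of Relb from -0.23 to -0.15 and that of Nfkbia from 0.16 to 0.20. These 3 genes moved least. By limma, Rel had an adjusted p of 0.018 when WT replicate 1 was dropped and 0.0079 when WT replicate 2 was dropped. The adjusted p was 0.73 without KO replicate 1 and 0.55 without KO replicate 2, settings in which limma called 0 of 22180 genes. Without WT replicate 1, Nfkb2 was at -0.18, Nfkbie at -0.06 and Tnfaip3 at -0.10, while Rela was at -0.39 (limma adjusted p = 0.058) and Nfkbiz at -0.70 (limma adjusted p = 0.059). Without WT replicate 2, limma called 5 of the 9 genes lower, with adjusted p-values of 0.010 for Rela, 0.031 for Nfkb2, 0.017 for Nfkbiz and 0.027 for Tnfaip3 beside that of Rel. In that setting it also called 1272 genes lower and 1730 higher over the whole table. The median over the 9 genes was -0.15 without WT replicate 1 and -0.83 without WT replicate 2.

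**Figure D2:**
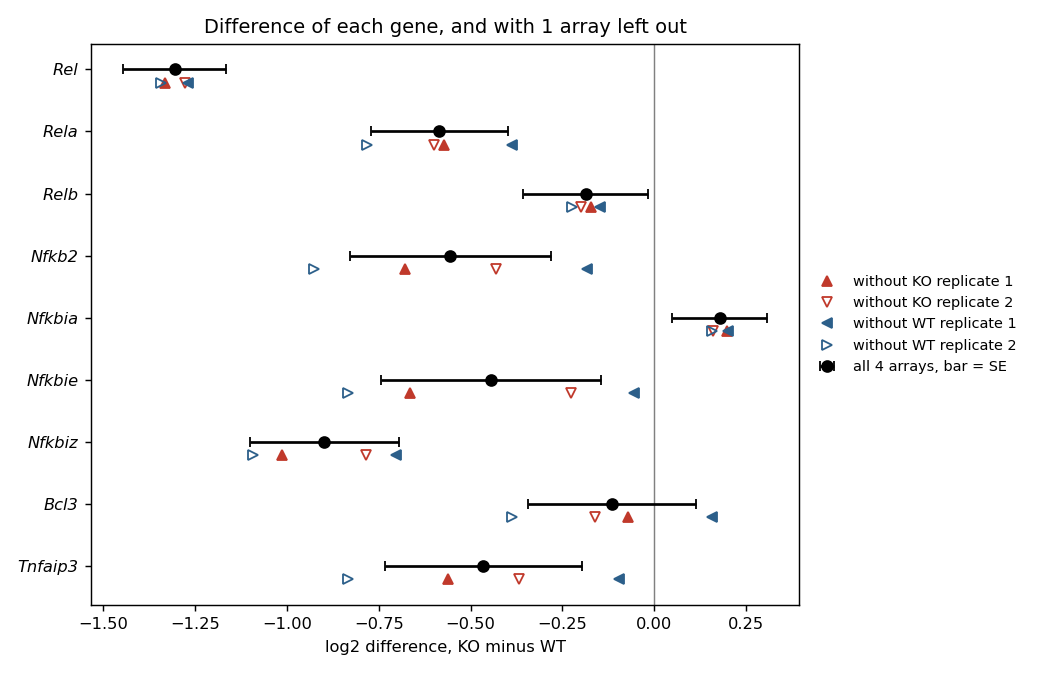
Log2 difference, KO minus WT (horizontal axis), of the 9 genes with all 4 arrays (black points, bars are SE) and with 1 array left out (triangles, red for KO arrays and blue for WT arrays). The triangles of Rel stay between -1.34 and -1.27 and those of Relb and Nfkbia are as close together, while those of Nfkb2 run from -0.93 to -0.18 and those of Bcl3 from -0.39 to 0.16.

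Genes that the handling of fresh tissue can induce, such as immediate early and heat shock genes, were examined because Nfkbia, Nfkbiz and Tnfaip3 can be induced in the same way. Of 22 such genes, 0 passed the adjusted threshold in limma. At an unadjusted p under 0.05, 15 of the 22 were lower and 0 higher in KO, against 6.93% and 10.5% of all genes. The median log2 difference of the list was -0.58. The summed level of the list was 13.55 and 13.53 in KO, against 14.34 and 13.69 in WT (log2 of the sum of linear values), so WT replicate 1 was again the highest array. Egr1, an immediate early transcription factor gene, was at 7.22 and 7.07 in KO and at 8.54 and 7.98 in WT, a difference of -1.11 ± 0.23 (SE, limma adjusted p = 0.093). Nr4a2, the gene of smallest p in the list, was at 6.66 and 6.20 in KO and at 7.77 and 7.78 in WT. Its difference was -1.34 ± 0.21 (SE, limma adjusted p = 0.062), and its WT arrays were nearly level. WT replicate 1 was above WT replicate 2 in 17 of the 22 genes, against 46.6% of all genes. Centred on each gene's mean, the median of the 9 NF-kB genes was -0.14 and -0.33 on the KO arrays and 0.60 and -0.10 on the WT arrays. That of the 22 handling genes was -0.29 and -0.31 on the KO arrays and 0.57 and 0.06 on the WT arrays. The median log2 difference of the handling list was -0.43 without WT replicate 1 and -0.73 without WT replicate 2. It was -0.60 without KO replicate 1 and -0.57 without KO replicate 2. The part of handling in the differences of the NF-kB genes was not tested.

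**Figure D3:**
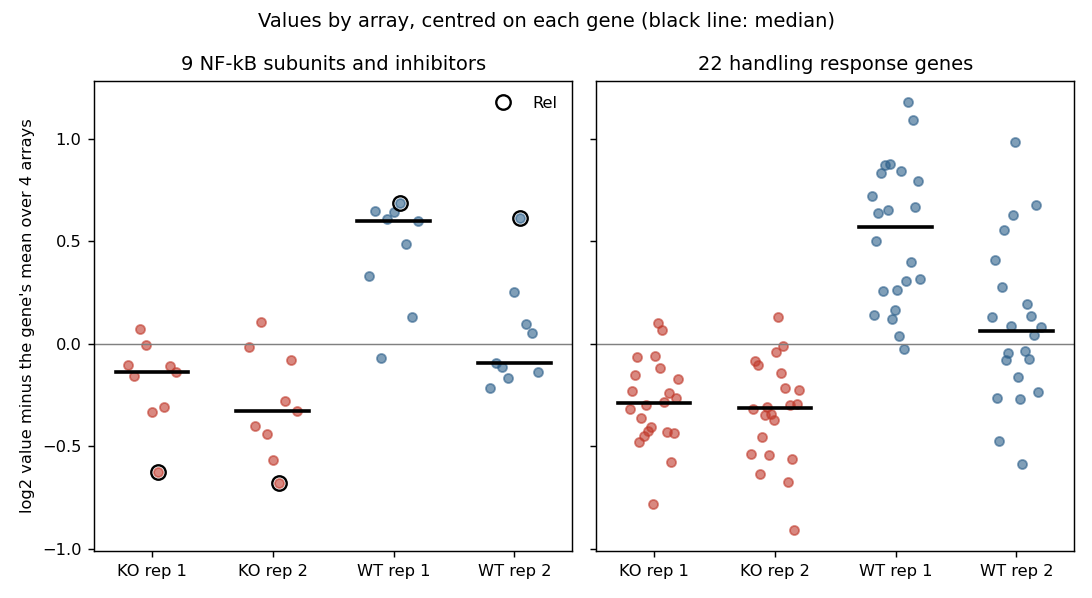
Log2 values minus each gene's mean over the 4 arrays (vertical axis) for the 9 NF-kB genes (left) and 22 handling response genes (right), by array, with KO in red, WT in blue and the median as a black line. The medians of both lists are highest on WT replicate 1, at 0.60 and 0.57, while Rel (ringed) is nearly as high on WT replicate 2 as on WT replicate 1. Among the handling genes, Nr4a2 is also nearly level, at 0.67 and 0.68 on WT replicates 1 and 2. Egr2 is higher on WT replicate 2, at 0.26 and 0.56. WT replicate 1 is the higher WT array in 17 of the 22 handling genes.

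Ncoa3 itself, as a check of the labels, was at 5.35 and 5.09 in KO and at 7.76 and 7.05 in WT, with its difference of -2.19 ± 0.27 past the threshold (SE, limma adjusted p = 0.038). Of 10 LSK markers 8 were measured, with 0 past the adjusted threshold in limma. At an unadjusted p under 0.05, 6 of these markers were lower and 0 higher in KO, against 6.93% and 10.5% of all genes. The summed level of the LSK markers was 11.26 and 11.17 in KO and 12.13 and 11.74 in WT. WT replicate 1 was above WT replicate 2 in 8 of the 8. Kit, the receptor used in the sort, was at 9.43 and 9.34 in KO and at 10.33 and 9.65 in WT, and Ly6a, which encodes Sca1, had no probe set of its own in the annotation used here. Among markers of other cells, 0 of 12 macrophage genes passed an unadjusted p under 0.05 in limma in either direction, and 0 passed the adjusted threshold. Their summed level was 9.11 and 9.14 in KO and 9.27 and 9.08 in WT. Of 9 neutrophil markers 6 were higher in KO at that unadjusted p, with sums of 9.31 and 9.40 in KO against 8.13 and 8.51 in WT. Of the 4 erythroblast markers measured of 8, 3 were higher and 1 lower, with sums of 8.53 and 8.54 in KO against 5.69 and 5.74 in WT. Rhag and Ermap were past the adjusted threshold. The KO sums were mostly Rhag, at 7.31 and 7.30, and Ermap, at 7.58 and 7.56. The 1 lower gene was Slc4a1, with means of 3.30 in KO and 4.27 in WT (-0.96 ± 0.24, SE, limma adjusted p = 0.13). Of 7 B cell markers 3 were lower, with sums of 8.17 and 8.18 in KO against 8.52 and 8.77 in WT. Among these, Jchain was lower in KO, at 5.62 and 5.75 against 7.06 and 7.74 in WT. Cd79b had a higher mean in KO, at 7.45 and 7.48 against 7.28 and 7.11 in WT. Group means were lower in KO for 5 of the 7, against 50.2% of all genes. Of 8 T and NK cell markers 1 was lower, with sums of 10.35 and 10.43 in KO against 9.77 and 10.22 in WT. That sum was mostly Nkg7, at 10.27 and 10.36 in KO and at 9.64 and 10.11 in WT. Group means were lower in KO for 4 of the 8, against 50.2% of all genes, and the list's median difference was -0.03. No detection calls were used, so none of these markers could be called absent, and the part of the makeup of the sorted cells in the fall of Rel was not tested.

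Upstream of the subunits no listed gene passed the adjusted threshold. Of 18 measured receptors that signal to NF-kB, limma gave 2 lower and 0 higher in KO at an unadjusted p under 0.05. That was 11.1% lower and 0% higher, against 6.93% and 10.5% of all genes. The median difference of this list was -0.06, and it was 0.06 after quantile normalization and 0.03 without WT replicate 2. Il1r1, the signalling receptor of interleukin 1, was at 5.82 and 5.45 in KO and at 6.50 and 6.49 in WT (-0.86 ± 0.20, SE, limma adjusted p = 0.11). Il18r1, a chain of the interleukin 18 receptor, was at 3.36 and 3.52 in KO and at 4.32 and 4.07 in WT (-0.76 ± 0.18, SE, limma adjusted p = 0.12). In both genes both KO arrays lay below both WT arrays, as in 22.9% of all genes. The mean of Il18r1 lay below the median gene of the table in both groups, a range in which such summaries are compressed. Of 10 ligands, among them Tnf, Il1b and Ltb, limma called 0 at an unadjusted p under 0.05 and 0 after adjustment, with a median of -0.05 and a range of -0.35 to 0.38. In this list 2 genes were higher after quantile normalization, against 12.7% of all genes. The median was -0.20 over the ligands no dimmer than the median gene, 0.06 without WT replicate 1 and -0.10 without WT replicate 2.

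Of 23 measured kinases and adaptors that activate NF-kB, 2 were lower and 1 was higher in KO at an unadjusted p under 0.05, and limma called 0 after adjustment. That was 8.70% lower and 4.35% higher, against 6.93% and 10.5% of all genes. Malt1, a protease of the antigen receptor branch, was at 7.03 and 7.06 in KO and at 7.80 and 7.52 in WT (-0.61 ± 0.18, SE, adjusted p = 0.17). Tab2, an adaptor of the kinase TAK1, was at 8.33 and 8.14 in KO and at 8.75 and 8.71 in WT (-0.50 ± 0.16, SE, adjusted p = 0.19). Tab1, another TAK1 adaptor, was higher in KO, at 6.59 and 6.58 in KO and at 6.03 and 5.66 in WT (0.74 ± 0.20, SE, adjusted p = 0.14). The adaptors of the kinase thus lay on both sides, and the list's median was -0.05, or 0.01 after quantile normalization and 0.09 without WT replicate 1. Without WT replicate 2 the median was -0.12.

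Other brakes on the pathway had lower means in KO in 12 of 14 genes, against 50.2% of all genes, with a median of -0.24. At an unadjusted p under 0.05, 2 were lower and 1 was higher, and limma called 0 after adjustment. That was 14.3% lower and 7.14% higher, against 6.93% and 10.5% of all genes. Zc3h12a, a ribonuclease that degrades inflammatory messages, was at 5.87 and 5.85 in KO and at 6.91 and 6.29 in WT (-0.74 ± 0.24, SE, adjusted p = 0.19). Cyld, a deubiquitinase, was at 4.88 and 4.43 in KO and at 5.24 and 5.19 in WT (-0.56 ± 0.21, SE, adjusted p = 0.24). Otulin, which removes linear ubiquitin chains, was at 6.31 and 6.21 in KO and at 5.89 and 5.32 in WT (0.66 ± 0.23, SE, adjusted p = 0.22). WT replicate 1 lay above WT replicate 2 in 11 of these 14, and KO replicate 1 above KO replicate 2 in 12 of them. Over all genes these shares were 46.6% and 49.1%. Dropping WT replicate 2 gave a median of -0.34, dropping WT replicate 1 gave -0.07 and dropping KO replicate 2 gave -0.15.

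Of the target genes Cxcl10 alone passed the test. Of 30 measured NF-kB target genes, 6 were higher and 1 was lower at an unadjusted p under 0.05, 1 rose past the adjusted threshold and 0 fell. At the unadjusted p that was 20% higher and 3.33% lower, against 10.5% and 6.93% of all genes. The median difference was 0.05, with 0.17 after quantile normalization and 0.20 without WT replicate 1. Cxcl10, a chemokine gene that interferons also induce, rose and was at 7.05 and 7.07 in KO, against 4.37 and 4.64 in WT (2.55 ± 0.19, SE, limma adjusted p = 0.0090). Ccl2, a monocyte chemokine gene, was at 5.72 and 6.05 in KO and at 4.68 and 4.88 in WT (1.10 ± 0.20, SE, adjusted p = 0.081). Ptgs2, the inducible prostaglandin synthase gene, was the 1 lower gene, at 6.21 and 5.97 in KO and at 7.01 and 7.05 in WT (-0.94 ± 0.18, SE, adjusted p = 0.086).

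Of the other higher target genes, 3 had WT arrays far apart. Sod2, the mitochondrial superoxide dismutase gene, was at 7.69 and 7.60 in KO and at 6.76 and 7.23 in WT (0.65 ± 0.21, SE, adjusted p = 0.19). Ccl5, a chemokine gene, was at 8.10 and 7.89 in KO and at 6.74 and 7.55 in WT (0.85 ± 0.28, SE, adjusted p = 0.20), and Tnfaip2 was at 6.26 and 6.04 in KO and at 5.60 and 4.69 in WT (1.01 ± 0.31, SE, adjusted p = 0.18). In all 3, which were named for a small p, both KO arrays lay above both WT arrays, as in 25.1% of all genes. Cxcl2, a neutrophil chemokine gene named outside the rule after its values were seen, was at 7.88 and 7.93 in KO and at 7.39 and 7.50 in WT. Quantile normalization gave 10 higher and 2 lower genes in the target list, against 12.7% higher and 6.01% lower of all genes. The list's median was 0.06 without KO replicate 1, 0.10 without KO replicate 2 and 0.06 without WT replicate 2.

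**Figure D4:**
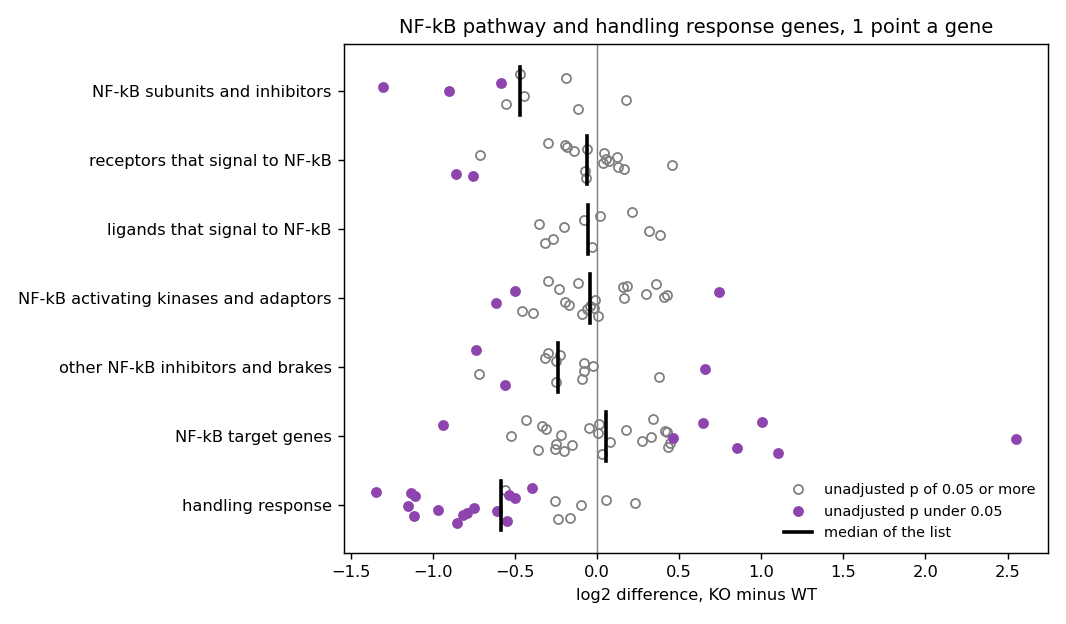
Log2 difference, KO minus WT (horizontal axis), of each gene in the 9 NF-kB subunits and inhibitors, 5 lists of other pathway genes and the handling response list. Filled points had an unadjusted p under 0.05 and black lines are list medians, which run from -0.58 for the handling response and -0.47 for the subunits and inhibitors to 0.05 for the target genes.

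Genes with the pattern closest to that of Rel were named by the root mean square distance between log2 values centred on each gene, over the 4 arrays, among 11089 genes no dimmer than the median gene. The nearest was Zbtb10, a zinc finger gene, at a distance of 0.05 and a difference of -1.29 ± 0.18 (SE, limma adjusted p = 0.0497). The next 4 were the gene model Gm19281, an immunoglobulin kappa V segment, Stk17b, a kinase gene of the death-associated family, and Nr4a3, an inducible orphan receptor gene. Stk17b was at 8.55 and 8.50 in KO and at 9.96 and 9.70 in WT, and Nr4a3 at 5.56 and 5.33 in KO and at 6.82 and 6.78 in WT. Their distances were 0.06 and 0.07. Likeness over 4 arrays is a description of these samples and was not tested. These genes were picked for values like those of Rel, so their differences and p-values follow from the choice and are no separate evidence.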

How the data were processed

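The authors deposited log2 expression values of 41345 probe sets on 4 arrays, 2 KO and 2 WT. RMA and Affymetrix Expression Console 1.2.1 are named per the submitters' processing notes, but the sources used here state no settings, filters or genome build. RMA compresses dim probe sets. Depth does not apply to arrays, and 2 arrays a group limit the precision. The platform annotation gave 1 gene symbol to 23521 probe sets, several to 1814, and left 16010 unlisted. For every gene the probe set of highest mean was used, which gave 22180 genes.

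KO was compared with WT across all genes in limma 3.58.1 (R 4.3.3), on log2 values with an intensity trend, two-sided, with Benjamini-Hochberg adjustment over all genes at 0.05. Fits were tested on simulated data. The 10 genes and all lists were chosen with earlier results of these data known. List genes were named by smallest p, up to 6 a list among those at an unadjusted p under 0.05, of which the text gives not all, and 5 genes nearest to Rel. Of the nearest, 1 is given without its name. Members of 12 lists were matched by symbol. Alternatives were the replicate number as a block, other uses of probe sets, a filter on dim genes, quantile normalization, no trend and each array left out.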

Additional observations from a re-analysis of the deposited data

How the results depend on the processing

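Rel was past the adjusted threshold in the 6 alternatives that kept all 4 arrays and in both that left out a WT array, and not in the 2 that left out a KO array, where limma called 0 genes in the whole table. Only quantile normalization and leaving out an array could change a difference. Each of the 9 genes had 1 probe set, and the other alternatives altered only the spread, so direction was fixed there. Where it could change, the direction was kept except for Bcl3, whose difference ran from -0.39 to 0.16 with 1 array left out. With 1 array left out, 0 to 5 of the 9 genes passed the adjusted threshold, 1 to 6 were lower and 0 to 1 higher at an unadjusted p under 0.05, where 2.86% to 12.3% of all genes were lower and 3.77% to 16.0% higher. The lone sample of a group is assumed there to vary like the other group. With the replicate block 1 gene passed, Rel (adjusted p = 0.042), and 4 were lower at an unadjusted p, Nfkb2 being added, against 7.90% of all genes. The replicate numbers are not known to pair the samples, and the deviations of same-numbered samples correlated at 0.11 across genes. The median over all genes moved to 0.06 after quantile normalization. No detection calls were used, so signal over background could not be judged.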

Other observations

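The subunits of the linear ubiquitin ligase, which helps to activate the IkB kinase, and the inhibitor gene Nfkbib were singled out after their values were seen. Rnf31, the catalytic subunit, was at 7.54 and 7.55 in KO and at 7.32 and 6.92 in WT (0.43 ± 0.20, SE, limma adjusted p = 0.33). Rbck1 was at 7.73 and 7.71 in KO and at 7.47 and 7.15 in WT, and Sharpin at 8.08 and 8.03 in KO and at 7.93 and 7.58 in WT. In all 3 subunits both KO arrays lay above both WT arrays, as in 25.1% of all genes, and WT replicate 2 was the lowest array. Nfkbib, which encodes IkB beta, was at 8.13 and 8.03 in KO and at 7.65 and 7.76 in WT (0.38 ± 0.16, SE, limma adjusted p = 0.30). None of the 4 passed the test in limma, and each had an unadjusted p of 0.05 or more. Nfkbid, an inducible nuclear inhibitor gene, was at 7.09 and 6.98 in KO and at 8.44 and 7.07 in WT. The groups overlapped, and WT replicate 1 stood far above the other 3 arrays.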
